A study of Mus musculus with 17 samples.

Results

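Potassium channel genes of the heart were followed as a group of 9 named by their symbols: Kcnj2, Kcnj3, Kcnj5, Kcnj11, Kcnd2, Kcnq1, Kcnh2, Kcna5 and Kcnip2. All 9 of 9 were found by gene identifier among 31647 features of the deposited count table by a rule that uses the symbols alone. Transcripts were measured in 17 hearts of male wild-type C57BL/6J mice aged 8 to 11 weeks at surgery. In 9 mice the left anterior descending coronary artery was ligated permanently, without reperfusion, and RNA was taken from the infarct zone (IZ) on day 5 post-MI. The other 8 mice underwent the same operation without ligation, and RNA was taken from the left ventricle (LV) on day 5. The labels of the sham samples say heart, and the study's methods name the LV. Each sample was 1 mouse, and the sequenced IZ were drawn at random from a larger set of ligated mice. The method, massive analysis of cDNA ends, reads the 3' end of polyadenylated RNA and tags each molecule with an identifier, so a transcript gives counts without a length term.

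Potassium currents end the cardiac action potential and hold the resting potential of the cardiomyocyte. Pore subunits carry the current, and accessory subunits set its size and speed. In the mouse ventricle the fast transient outward current and the ultrarapid delayed rectifier do most of the repolarisation, whereas the rapid and slow delayed rectifiers carry more of it in large mammals. ATP-sensitive channels open when the energy state of the cell falls, and the acetylcholine-gated channel, built from Kcnj3 and Kcnj5, is known best from atrial and nodal cells.

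Depth ran from 1820809 to 4257919 counts per sham library and from 1237675 to 4738307 counts per IZ library. The 12 cardiomyocyte markers, which include Myh6, Tnni3 and Ryr2, were present in every library. Their summed level was 80466 to 95621 CPM in sham and 3569 to 35772 CPM in the IZ, where CPM is the count scaled to a library of 1000000, with library sizes set by TMM (trimmed mean of M values). IZ replicate 1 held the 35772 CPM, and the other 8 IZ libraries held at most 8331. Mitochondrially encoded features took 19.5% of the counts in IZ replicate 1, 4.22 to 6.78% in the other IZ libraries and 22.9 to 32.4% in sham. IZ replicate 1 therefore stood apart from its group, and the main results are given with and without it. In a bulk sample, fewer cells of a type and less RNA per cell cannot be told apart.

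All 9 channel genes were lower in the IZ than in sham LV, under each of 4 ways to scale the libraries over all genes. Under TMM their log2 fold changes ran from -1.91 for Kcna5 to -4.92 for Kcnj3, with a median of -3.03. Relative to cardiomyocyte transcripts 4 of them were called higher, on a scale where 97.2% of all tested genes were called higher. Under TMM the quasi-likelihood test of edgeR, with p adjusted over 12301 tested genes by the method of Benjamini and Hochberg, called 9 of 9 lower and 0 higher. It called 33.1% of all tested genes lower, 36.3% higher and 69.5% in either direction. In 8 of the 9 genes every IZ library lay below every sham library, which was true of 16.5% of the tested genes. The median log2 fold change of all tested genes was 0.05. Of the tested genes, 8.58% had a log2 fold change at or below that of Kcna5, and 0.114% one at or below that of Kcnj3. The 9 genes were still called lower without IZ replicate 1. The plot of CPM by mouse gives each sample, and IZ replicate 1, marked with a ring, was the highest IZ sample in all 9 panels.

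**Figure D1:**
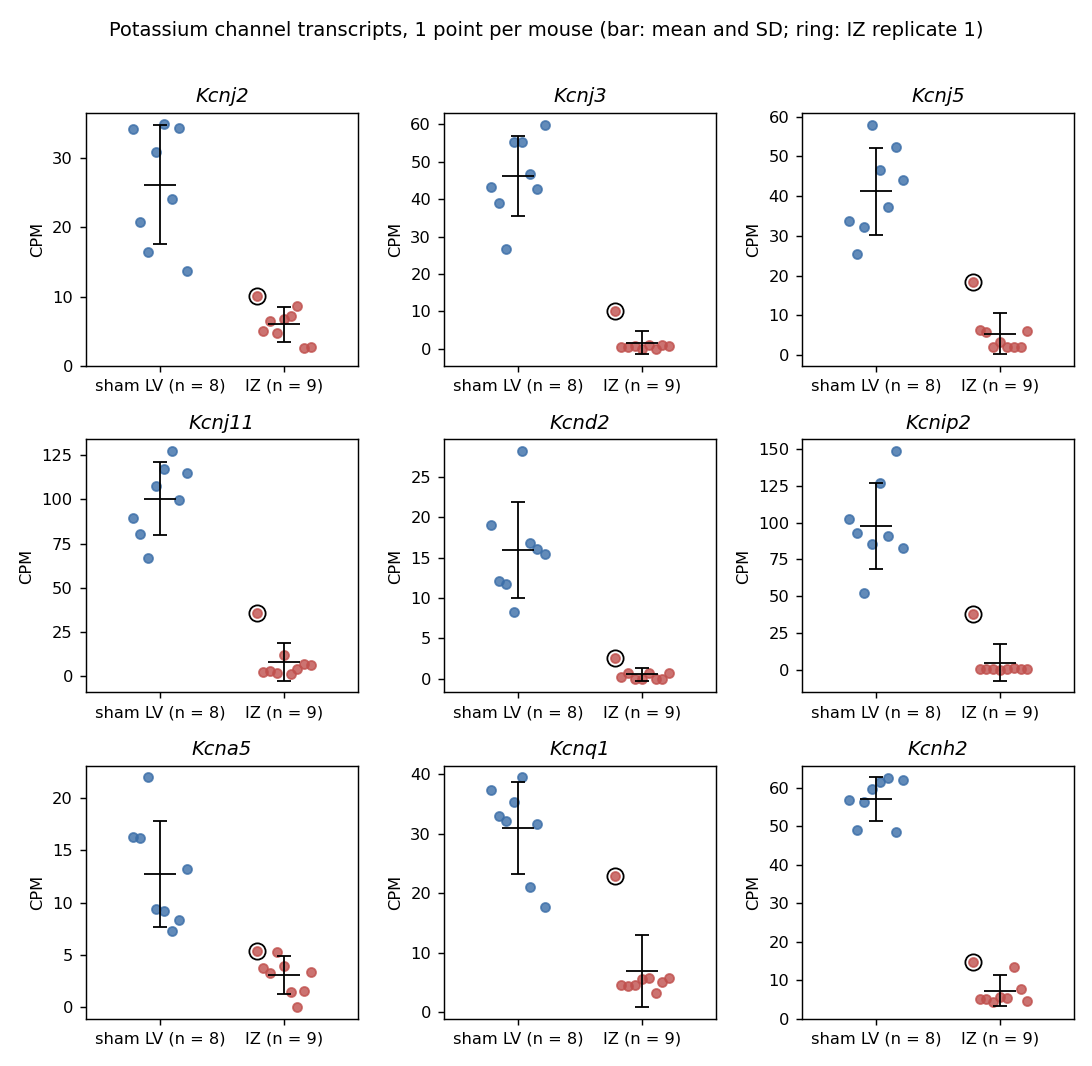
CPM (vertical axis, linear) of each channel gene in 8 sham LV and 9 IZ samples, with 1 point per mouse, bars for the mean and SD and a ring around IZ replicate 1. The groups overlap only for Kcnq1, where IZ replicate 1 reached 23.0 CPM, inside the sham range of 17.6 to 39.5.

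The pore of the fast transient outward channel is encoded by Kcnd2 (ENSMUSG00000060882, chr6:21215503-21729805, plus strand, GRCm38), and Kcnip2 (ENSMUSG00000025221, chr19:45791839-45816061, minus strand) encodes the calcium-binding subunit that brings this pore to the membrane. Kcnd2 ran from 8.28 to 28.2 CPM in sham, with a median of 15.7, and from 0 to 2.51 CPM in the IZ, with a median of 0.138. It had no count in 4 of the 9 IZ libraries and 1 to 7 counts in the others, against 15 to 55 counts in sham, so its level in the IZ was near the limit of detection. Sham and IZ did not overlap. The mean was 15.9 ± 5.99 CPM in sham (SD, n = 8), against 0.521 ± 0.812 CPM in the IZ (SD, n = 9). The log2 fold change was -4.88 ± 0.43 (SE, adjusted p 1.14e-09), or -5.57 without IZ replicate 1. A gene model on the same strand inside Kcnd2, Gm42583, took up to 18 counts in sham and up to 4 in the IZ and was counted apart from it.

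Kcnip2 ran from 52.5 to 148 CPM in sham, with a median of 91.9, and from 0.561 to 38.0 CPM in the IZ, with a median of 1.08. IZ replicate 1 alone held the 38.0 CPM, the other 8 IZ samples held at most 1.61 CPM, and the groups did not overlap. The mean was 97.8 ± 29.0 CPM in sham (SD, n = 8), against 5.17 ± 12.3 CPM in the IZ (SD, n = 9), or 1.06 ± 0.286 CPM over the 8 IZ samples without replicate 1. This gave a log2 fold change of -4.35 ± 0.58 (SE, adjusted p 6.12e-07), with the widest error among the 9 genes, and of -6.50 ± 0.22 without IZ replicate 1.

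Kcna5 (ENSMUSG00000045534, chr6:126532551-126535412, minus strand) encodes the pore of the ultrarapid delayed rectifier. Its level was 7.28 to 21.96 CPM in sham, with a median of 11.3, and 0 to 5.38 CPM in the IZ, with a median of 3.35. The groups did not overlap, but the gap was narrow, and IZ replicate 7 had no count. The mean fell from 12.7 ± 5.09 CPM (SD, n = 8) to 3.10 ± 1.80 CPM (SD, n = 9). The log2 fold change of -1.91 ± 0.32 (SE, adjusted p 1.4e-05) was the smallest of the 9 genes, and it was -2.02 without IZ replicate 1.

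Among the inward rectifiers, Kcnj2 (ENSMUSG00000041695, chr11:111066164-111076821, plus strand) encodes the main ventricular pore of the current that sets the resting potential. It ran from 13.8 to 34.9 CPM in sham, with a median of 27.5, and from 2.56 to 10.1 CPM in the IZ, with a median of 6.53. Each IZ sample lay below each sham sample. The mean was 26.2 ± 8.54 CPM in sham (SD, n = 8), against 6.02 ± 2.52 CPM in the IZ (SD, n = 9). Its log2 fold change was -2.15 ± 0.24 (SE, adjusted p 3.84e-08), and -2.31 without IZ replicate 1.

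Kcnj11 (ENSMUSG00000096146, chr7:46093953-46100764, minus strand), the pore of the ATP-sensitive channel, had 66.7 to 127 CPM in sham, with a median of 104, and 1.44 to 35.9 CPM in the IZ, with a median of 4.30. The 35.9 CPM were those of IZ replicate 1, no other IZ sample exceeded 11.8 CPM, and all 9 IZ samples lay below sham. The mean was 101 ± 20.5 CPM in sham (SD, n = 8), against 8.26 ± 10.9 CPM in the IZ (SD, n = 9). Its log2 fold change was -3.73 ± 0.43 (SE, adjusted p 5.54e-08), and -4.66 without IZ replicate 1.

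Kcnj3 (ENSMUSG00000026824, chr2:55435970-55598145, plus strand) and Kcnj5 (ENSMUSG00000032034, chr9:32314707-32344350, minus strand) encode the pair of subunits of the acetylcholine-gated channel, which opens when a G protein is released by a receptor. Kcnj3 ran from 26.7 to 60.0 CPM in sham, with a median of 44.99, and from 0 to 10.1 CPM in the IZ, with a median of 0.669. IZ replicate 1 held 28 counts of Kcnj3 and the other 8 IZ libraries 0 to 4 counts. The mean was 46.1 ± 10.8 CPM in sham (SD, n = 8), against 1.63 ± 3.18 CPM in the IZ (SD, n = 9), without overlap. The log2 fold change of -4.92 ± 0.43 (SE, adjusted p 8.87e-10) was the largest decrease among the 9 genes in the fit to all libraries, and without IZ replicate 1 it was -6.19, where that of Kcnip2 was larger.

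Kcnj5 ran from 25.5 to 58.0 CPM in sham, with a median of 40.6, and from 2.05 to 18.3 CPM in the IZ, with a median of 3.37. IZ replicate 1 was again the highest IZ sample, the next reached 6.20 CPM, and the groups did not overlap. The mean was 41.2 ± 10.98 CPM in sham (SD, n = 8), against 5.35 ± 5.18 CPM in the IZ (SD, n = 9). Kcnj5 had a log2 fold change of -2.91 ± 0.32 (SE, adjusted p 2.68e-08), and of -3.36 without IZ replicate 1.

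Kcnh2 (ENSMUSG00000038319, chr5:24319589-24351604, minus strand) and Kcnq1 (ENSMUSG00000009545, chr7:143106362-143427042, plus strand) encode the pores of the rapid and the slow delayed rectifier, and variants of both are known from inherited long QT syndrome. Kcnh2, whose sham samples lay close together, had 48.5 to 62.6 CPM in sham with a median of 58.3, and 4.51 to 14.7 CPM in the IZ, with a median of 5.40. The IZ samples lay far below sham, and replicates 1 and 7 were the highest among them. The mean was 57.1 ± 5.63 CPM in sham (SD, n = 8), against 7.37 ± 3.92 CPM in the IZ (SD, n = 9). The log2 fold change was -3.03 ± 0.21 (SE, adjusted p 1.86e-11), with the smallest error and the smallest adjusted p of the 9 genes, and it was -3.28 without IZ replicate 1.

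Kcnq1 ran from 17.6 to 39.5 CPM in sham, with a median of 32.5, and from 3.22 to 23.0 CPM in the IZ, with a median of 5.12. Of the 9 IZ samples, 8 lay below sham, at 5.76 CPM or less, and IZ replicate 1 lay within it. The mean was 31.0 ± 7.70 CPM in sham (SD, n = 8), against 6.87 ± 6.09 CPM in the IZ (SD, n = 9). For Kcnq1 the log2 fold change was -2.20 ± 0.30 (SE, adjusted p 6.79e-07), and -2.71 without IZ replicate 1. Kcnq1ot1, an antisense RNA within Kcnq1, was listed as a feature of its own with up to 57 counts in sham against 166 in the IZ. These are raw maxima that are not scaled to depth, so they do not compare the groups. Whether strand was used in counting is not given in the sources used here, so reads of both genes cannot be told apart with certainty.

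Since the cardiomyocyte markers were themselves lower in the IZ, with 12 of 12 called and a median log2 fold change of -3.27, each gene was also set against them. Here the size of a library was the summed count of the 12 markers, and levels were expressed per 100000 marker counts. On that scale the median log2 fold change of all tested genes was 3.98, 97.2% of the tested genes were called higher in the IZ and 0.496% lower. Of the 9 channel genes, 3 were called lower, 4 higher and 2 were not called, with a median log2 fold change of 0.60. Without IZ replicate 1, 4 were called lower and 5 higher. The decrease of the channel genes was thus unequal when measured against the cardiomyocyte markers, whose own log2 fold changes ran from -2.12 for Actc1 to -4.19 for Tnni3.

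Kcnj3, Kcnip2 and Kcnd2 fell further than the marker sum. Kcnj3 was at 51.5 ± 11.3 per 100000 marker counts in sham (SD, n = 8) and at 12.8 ± 9.48 in the IZ (SD, n = 9), with 9 of 9 IZ samples below sham and a log2 fold change of -1.80 ± 0.42 (SE, adjusted p 6.47e-05). Kcnip2 was at 109.7 ± 33.1 in sham (SD, n = 8) and at 30.6 ± 30.0 in the IZ (SD, n = 9), with 8 of 9 IZ samples below sham and a log2 fold change of -1.69 ± 0.40 (SE, adjusted p 9.76e-05). The exception was IZ replicate 1 at 106 per 100000 marker counts, and the log2 fold change without it was -2.41. Kcnd2 was at 18.1 ± 7.53 in sham (SD, n = 8) and at 4.95 ± 5.48 in the IZ (SD, n = 9), with 7 of 9 IZ samples below sham and a log2 fold change of -1.58 ± 0.49 (SE, adjusted p 0.00217). The marker sum was 7670 to 99657 counts in the IZ libraries, against 102596 to 242770 in sham. With 0 to 7 counts of Kcnd2 in the IZ, its level on this scale was not resolved in single IZ libraries. Of 12301 tested genes, 11 had a log2 fold change on this scale at or below that of Kcnj3, 16 one at or below that of Kcnip2 and 17 one at or below that of Kcnd2.

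Kcna5, Kcnj2, Kcnq1 and Kcnh2 fell less than the marker sum, and so were called higher on this scale while they were lower on the scale of all genes. Kcna5 was at 14.5 ± 6.61 per 100000 marker counts in sham (SD, n = 8) and at 50.7 ± 45.8 in the IZ (SD, n = 9), a log2 fold change of 1.85 ± 0.44 (SE, adjusted p 8.91e-05), with 5 of 9 IZ samples above sham. Kcnj2 was at 29.3 ± 9.52 in sham (SD, n = 8) and at 100.03 ± 60.1 in the IZ (SD, n = 9), a log2 fold change of 1.72 ± 0.40 (SE, adjusted p 6.53e-05), with 6 of 9 above sham. Kcnq1 was at 35.1 ± 9.89 in sham (SD, n = 8) and at 86.8 ± 21.9 in the IZ (SD, n = 9), a log2 fold change of 1.30 ± 0.35 (SE, adjusted p 0.000531). It was the only one of the 9 genes with every IZ sample, replicate 1 included, above every sham sample on this scale. The share of all tested genes without overlap, in either direction, was not computed on this scale, where 97.2% were called higher. Counts of samples above or below sham on it are therefore descriptions alone.

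Kcnh2 was near the threshold, at 64.2 ± 7.11 per 100000 marker counts in sham (SD, n = 8) and at 117 ± 83.7 in the IZ (SD, n = 9), a log2 fold change of 0.80 ± 0.36 (SE, adjusted p 0.0336). Its call was lost under 6 of 20 alternatives, with a log2 fold change of 0.49 (adjusted p 0.179) without IZ replicate 7, 0.78 (adjusted p 0.0518) without sham replicate 2, 0.76 (adjusted p 0.0588) without sham replicate 7, and 0.50 (adjusted p 0.137) against a second list of 11 cardiomyocyte genes. Kcnj5 had a log2 fold change of 0.60 ± 0.37 (SE, adjusted p 0.108, 95% interval -0.13 to 1.34) and Kcnj11 one of -0.49 ± 0.35 (SE, adjusted p 0.164, 95% interval -1.18 to 0.20). Neither was called over all libraries, and without IZ replicate 1 both were, Kcnj5 at 0.70 (adjusted p 0.0197) and Kcnj11 at -0.57 (adjusted p 0.0379). Against the second cardiomyocyte list Kcnj11 was also called, at -0.71 (adjusted p 0.0367).

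**Figure D2:**
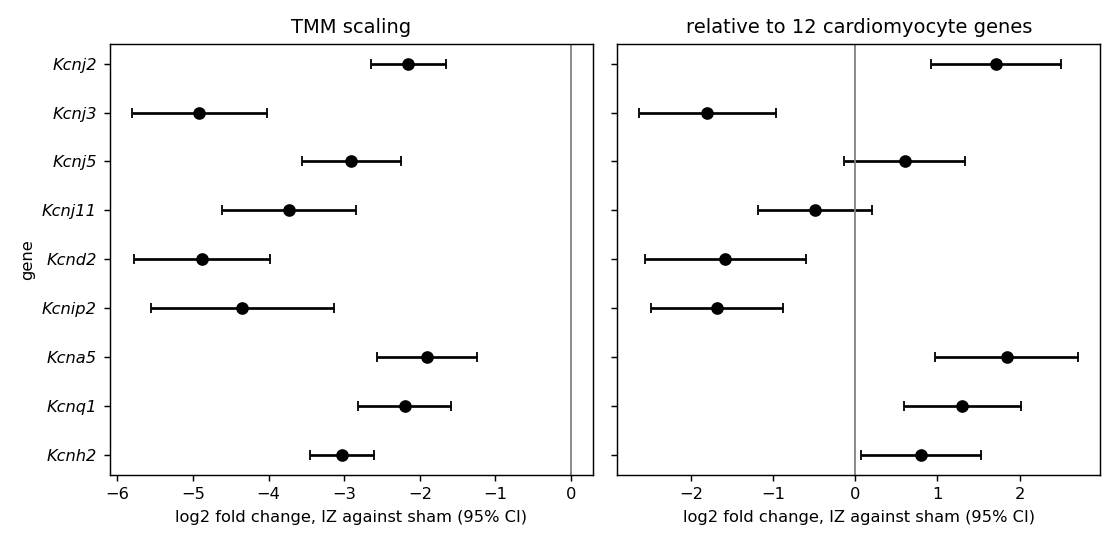
Log2 fold changes (horizontal axis, IZ against sham) of the 9 channel genes with 95% intervals, on the left under TMM scaling over all genes and on the right relative to 12 cardiomyocyte genes. The 9 intervals on the left lie below 0, and on the right those of Kcnj3, Kcnd2 and Kcnip2 lie below 0, those of Kcna5, Kcnj2, Kcnq1 and Kcnh2 above 0, and those of Kcnj5 and Kcnj11 include 0.

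The sequences upstream of the genes at the 2 ends of the order relative to cardiomyocyte markers are shown so that they can be read beside the values. These were the 250 bases before the start site in RefSeq (GRCm38.p6), which was found for 7 of the 9 genes. They are written 5' to 3' in the direction of the gene, in lower case, with matches to the searched motifs in capitals. The core promoter motif sought was TATAAA. The motif of the GC box, bound by factors of general transcription, was written as GGGCGG. The E-box of muscle basic helix-loop-helix factors was written as CAGCTG. The core of the site for the cardiac zinc finger factors was written as AGATAA. Each was sought on both strands, and no match overlapped another. Kcnj3, Kcnd2 and Kcnip2 were called lower relative to the markers, and Kcnj2 and Kcna5 higher.
Kcnj3, chr2:55435720-55435969, plus strand: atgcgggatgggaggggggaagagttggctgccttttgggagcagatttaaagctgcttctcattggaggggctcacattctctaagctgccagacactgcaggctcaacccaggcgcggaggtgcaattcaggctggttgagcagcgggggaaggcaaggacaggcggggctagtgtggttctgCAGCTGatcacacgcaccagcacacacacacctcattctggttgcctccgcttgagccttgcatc
Kcnd2, chr6:21215096-21215345, plus strand: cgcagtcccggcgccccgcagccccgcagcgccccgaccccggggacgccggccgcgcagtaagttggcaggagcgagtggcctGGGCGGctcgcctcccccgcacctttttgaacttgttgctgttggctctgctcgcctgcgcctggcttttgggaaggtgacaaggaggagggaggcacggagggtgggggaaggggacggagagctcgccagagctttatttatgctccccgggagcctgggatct
Kcnip2, chr19:45816064-45816313, minus strand: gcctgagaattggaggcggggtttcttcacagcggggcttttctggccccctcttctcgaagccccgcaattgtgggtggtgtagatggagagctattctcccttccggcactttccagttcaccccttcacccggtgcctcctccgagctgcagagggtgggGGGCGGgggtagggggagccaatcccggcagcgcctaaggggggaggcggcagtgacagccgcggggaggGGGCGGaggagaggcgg
Kcnj2, chr11:111065914-111066163, plus strand: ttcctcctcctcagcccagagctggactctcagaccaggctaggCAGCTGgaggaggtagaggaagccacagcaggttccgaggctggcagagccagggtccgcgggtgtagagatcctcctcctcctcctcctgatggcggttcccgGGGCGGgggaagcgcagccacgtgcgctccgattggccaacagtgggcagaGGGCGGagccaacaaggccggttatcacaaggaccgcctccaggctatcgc
Kcna5, chr6:126535556-126535805, minus strand: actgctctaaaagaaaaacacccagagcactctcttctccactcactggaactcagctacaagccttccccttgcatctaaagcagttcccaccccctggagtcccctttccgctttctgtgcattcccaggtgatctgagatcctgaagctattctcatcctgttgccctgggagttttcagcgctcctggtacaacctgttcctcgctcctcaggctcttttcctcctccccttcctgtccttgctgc

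GGGCGG was found in 5 of the 7 windows, and in 32.7% of 32851 RefSeq windows of the same length. The 5 include that of Kcnh2, which is not printed, since its RefSeq start lies 22013 bases from the start of the gene in the annotation. CAGCTG was found in 2 of 7, those of Kcnj3 and Kcnj2, and in 13.0% of all windows. TATAAA and AGATAA were found in 0 of 7, and in 12.4% and 9.99% of all windows. Kcnip2 and Kcnj2, which differed in direction relative to the markers, both held 2 matches to GGGCGG, and the window of Kcna5 held no match. GC content was 66.8% for Kcnip2, 68.8% for Kcnd2, 58.4% for Kcnj3, 65.6% for Kcnj2 and 53.2% for Kcna5, and its median over all windows was 52.4%. A match is a description of the letters and not a binding site.

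Pairs of channel genes were also compared by their ratio within a library, where library scaling enters through the prior count alone. Of these ratios, 5 were compared by an exact two-sided permutation test over all 24310 ways to assign the libraries to the groups, with a prior count that averaged 1 and was scaled to library size, and p adjusted over the 5 ratios. The log2 ratio of Kcnj3 to Kcnj5, the subunits of 1 channel, was 0.17 ± 0.34 in sham (SD, n = 8) and -2.004 ± 1.07 in the IZ (SD, n = 9). The difference was -2.17 (exact permutation p 0.000165, adjusted 0.000823), and each of the 9 IZ samples lay below each sham sample, replicate 1 included. That of Kcnj11 to Kcnj2, the ATP-sensitive against the strong inward rectifier, was 1.97 ± 0.52 in sham (SD, n = 8) and -0.12 ± 1.38 in the IZ (SD, n = 9), a difference of -2.09 (exact permutation p 0.00144, adjusted 0.0024), with 8 of 9 IZ samples below sham. The log2 ratio of Kcna5 to Kcnd2, the ultrarapid delayed rectifier against the transient outward pore, was -0.33 ± 0.83 in sham (SD, n = 8) and 2.04 ± 1.33 in the IZ (SD, n = 9). It was 2.37 higher in the IZ (exact permutation p 0.000823, adjusted 0.00206), with 7 of 9 IZ samples above sham. Kcnd2 had 0 to 7 counts in the IZ and Kcnj3 0 to 28, so the prior count set the size of these ratios in part. With a prior count of 0.5 the differences were -2.50 for Kcnj3 to Kcnj5 and 2.81 for Kcna5 to Kcnd2, and with a prior count of 5 they were -1.28 and 1.32, past the threshold in each case.

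The other 2 ratios were less stable. The log2 ratio of Kcnip2 to Kcnd2, accessory to pore subunit, was 2.61 ± 0.46 in sham (SD, n = 8) and 1.59 ± 1.09 in the IZ (SD, n = 9), a difference of -1.03 (exact permutation p 0.0275, adjusted 0.0344). Its size moved with the prior count, to -0.61 (exact permutation p, adjusted, 0.212) at 0.5 and -1.72 (adjusted 0.00158) at 5. The log2 fold changes over all libraries had the other order, at -4.88 for Kcnd2 and -4.35 for Kcnip2. Without IZ replicate 1 they were -5.57 for Kcnd2 and -6.50 for Kcnip2. The direction of this difference between the groups thus depended on the measure and on IZ replicate 1. IZ replicate 1 lay above the sham range at 3.74, and 7 of the other IZ samples lay below it. The call was lost under 8 of 21 alternatives, among them leaving out any 1 of sham replicate 4 and IZ replicates 2, 3, 5, 6 and 9 (differences of -1.02 to -0.88). That of Kcnh2 to Kcnq1 was 0.91 ± 0.48 in sham (SD, n = 8) and 0.21 ± 0.73 in the IZ (SD, n = 9), a difference of -0.70 (exact permutation p 0.0369, adjusted 0.0369). It was lost under 12 of 21 alternatives, among them leaving out any 1 of sham replicates 4, 6 and 8 and IZ replicates 1, 2, 3, 4, 5, 6 and 9 (differences of -0.73 to -0.58). Without IZ replicate 1 the differences were -2.32 for Kcnj3 to Kcnj5, -2.33 for Kcnj11 to Kcnj2, 2.50 for Kcna5 to Kcnd2, -1.30 for Kcnip2 to Kcnd2 and -0.60 for Kcnh2 to Kcnq1, and only the last missed the threshold (exact permutation p adjusted over the 5 ratios 0.0698).

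**Figure D3:**
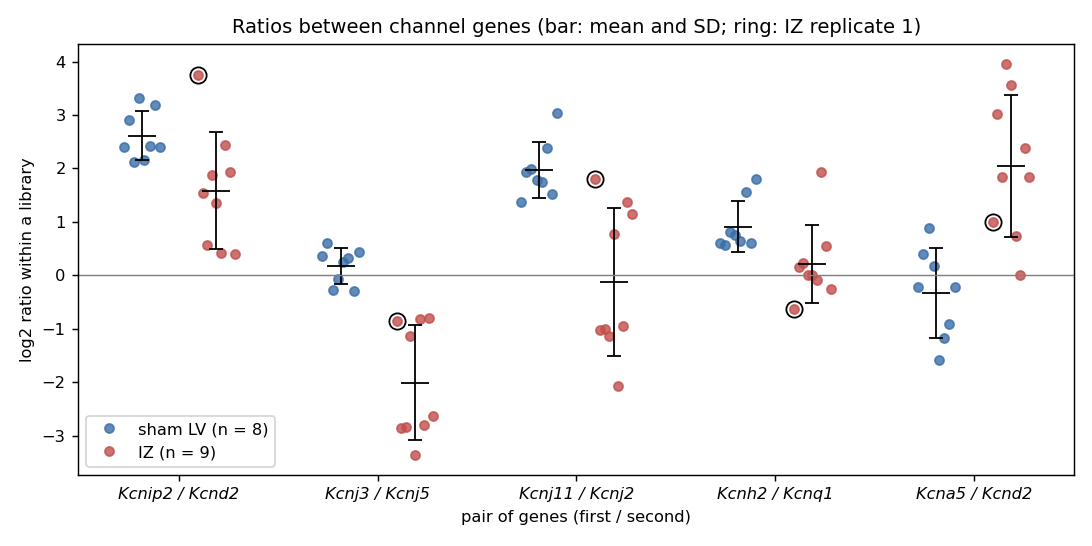
Log2 ratios of 5 pairs of channel genes within each library (vertical axis), with 1 point per mouse, bars for the mean and SD and a ring around IZ replicate 1. Only for Kcnj3 to Kcnj5 do sham and IZ separate without overlap, and for Kcnip2 to Kcnd2 IZ replicate 1 lies above the sham samples at 3.74.

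Sham libraries differed in Myl7, the atrial myosin light chain. It had 119 to 507 counts in sham replicates 4, 5, 6 and 8 and 15 to 52 in the other 4 sham libraries. The summed level of the 4 atrial markers with a feature, Nppa among them, overlapped between these sets. It was 253 to 964 CPM in the libraries with more Myl7 and 309 to 442 CPM in the others. Nppa had the largest part in this sum, with a sham mean of 324 CPM, against 80.9 for Myl7, 59.3 for Myl4 and 9.30 for Sln. The overlap therefore mainly describes Nppa. In the libraries with more Myl7, Kcnj3 was at 46.6 to 60.0 CPM, against 26.7 to 43.4 CPM in the others. Kcnj11 was at 108 to 127 against 66.7 to 99.96 CPM, and Kcnh2 at 59.6 to 62.6 against 48.5 to 56.9 CPM. The 2 sets of sham libraries did not overlap for these 3 genes and overlapped for the other 6. The share of all tested genes that separate in this way was not computed, so the count is a description alone. No test was made because the sets were drawn after the values of Myl7 were seen. Without the 4 sham libraries with more Myl7 the 9 genes were still called lower under TMM scaling, Kcnj3 with a log2 fold change of -4.65, Kcnj11 with -3.49 and Kcnh2 with -2.93. Relative to the cardiomyocyte markers, Kcnj3 was then at -1.57 (adjusted p 0.0066), and Kcnh2, at 0.89, was not called (adjusted p 0.105). The part of atrial tissue in these values was not tested further.

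**Figure D4:**
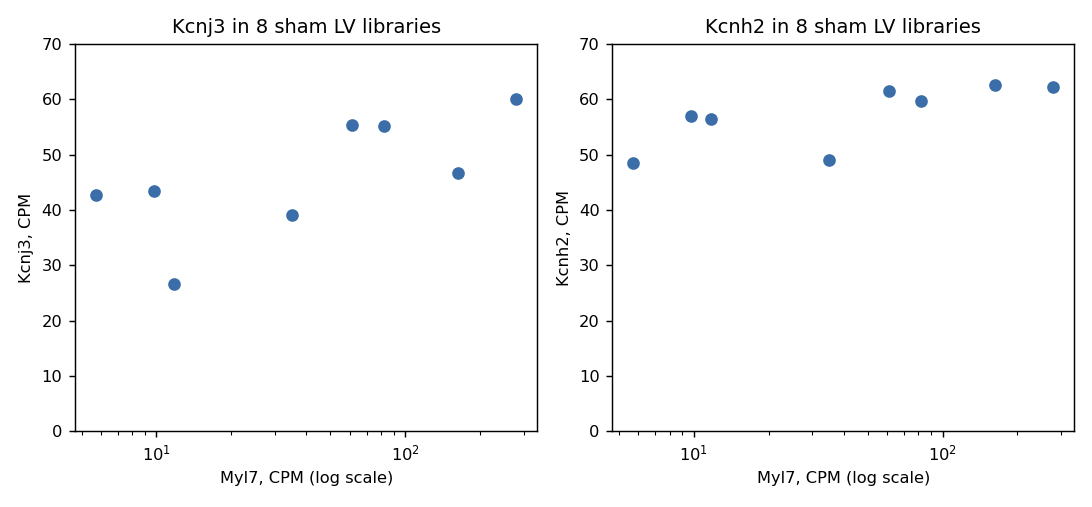
CPM of Kcnj3 and of Kcnh2 (vertical axes, linear, from 0) against CPM of the atrial gene Myl7 (horizontal axes, log scale) in the 8 sham LV libraries, with 1 point per mouse. The 4 libraries with 119 or more counts of Myl7 hold the 4 highest values of both genes. Both were taken from the channel genes that did not overlap between these libraries and the other sham libraries.

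Other cell types moved with the groups, and their part in the channel values was not tested. Fibroblast markers were called higher in 6 of 7 genes, with a summed level of 1517 to 2942 CPM in sham and 12530 to 20459 CPM in the IZ, and macrophage markers in 7 of 7 with a feature, from 373 to 544 CPM in sham to 2162 to 5526 CPM in the IZ. Of 6 endothelial markers 3 were called lower and 3 were not called, and of 7 mural markers 2 were lower, 4 higher and 1 not called. The second cardiomyocyte list was lower in 11 of 11. Of the atrial markers, Myl7 and Myl4 were lower, Nppa, which stressed ventricle also makes, was higher, and Sln was not tested. Most markers of the conduction system, of neurons and Schwann cells and of skeletal muscle were not tested for lack of counts. Of 7 conduction system markers 3 were tested, with Tbx3 lower, Gja5 higher and Cntn2 not called, and the summed level was 24.9 to 61.8 CPM in sham and 15.8 to 42.1 CPM in the IZ. Of 10 neuron and Schwann cell markers 3 were tested, with 1 lower, 0 higher and 2 not called, and Snap25 and Chat had no count in any library. Of 6 skeletal muscle markers 2 were tested, with 1 higher and 1 not called.

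The wider potassium channel family was read from a list of 88 further genes, of which 78 had a feature. Most were hardly expressed, since 61 of the 78 were not tested for lack of counts and 32 of these had at most 3 counts in every library. Of the 17 tested, 9 were called lower, 6 higher and 2 were not called, with a median log2 fold change of -1.80, where 33.1% of all tested genes were lower and 36.3% higher. Without IZ replicate 1, where only 13 passed the filter on counts, 6 were called lower and 6 higher.

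Of the partner subunits chosen by name, those tested and shown here were lower. A further accessory subunit that can join Kcnq1, Kcne4, named after its values were seen, was higher, at 2.72 ± 1.65 CPM in sham (SD, n = 8), against 15.1 ± 3.32 CPM in the IZ (SD, n = 9), a log2 fold change of 2.45 ± 0.27 (SE, adjusted p 3.4e-08). Abcc9, the sulfonylurea receptor of ventricular ATP-sensitive channels, was at 143 ± 18.01 CPM in sham (SD, n = 8), against 21.7 ± 12.4 CPM in the IZ (SD, n = 9), a log2 fold change of -2.72 ± 0.21 (SE, adjusted p 1.36e-10). Abcc8, the other receptor of this kind, had a log2 fold change of -2.89 ± 0.43 (SE, adjusted p 2.65e-06), and Kcnj8, the pore known from vascular smooth muscle and pericytes, one of -1.80 ± 0.20 (SE, adjusted p 2.66e-08). In Kcnj8, Abcc8 and Abcc9 alike every IZ sample lay below every sham sample, which was true of 16.5% of all tested genes. For Abcc8 the gap was narrow, with IZ replicate 1 at 11.8 CPM and a sham minimum of 12.8 CPM. The other IZ samples held at most 3.93 CPM of Abcc8. Kcne1, the accessory subunit of the slow delayed rectifier, was at 11.4 ± 5.84 CPM in sham (SD, n = 8), against 1.93 ± 1.82 CPM in the IZ (SD, n = 9), a log2 fold change of -2.61 ± 0.42 (SE, adjusted p 7.97e-06).

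Kcnd3, a second pore of the fast transient outward channel, had a log2 fold change of -2.94 ± 0.40 (SE, adjusted p 7.65e-07). Kcnj12, a further strong inward rectifier, was not tested for lack of counts, with 7 to 17 counts in sham against 1 to 8 in the IZ, although every IZ sample lay below every sham sample in CPM. Kcna4, the pore of the slow transient outward current, had 0 to 8 counts in sham against 0 to 5 in the IZ, and Kcnab1 had 1 to 7 and 0 to 10, so neither was tested. Relative to the cardiomyocyte markers, Kcnj8 (1.98, adjusted p 7.25e-07), Kcne1 (1.04, adjusted p 0.0225) and Abcc9 (0.95, adjusted p 0.00408) were called higher by log2 fold change, and Kcnd3 (0.47, adjusted p 0.279) and Abcc8 (0.38, adjusted p 0.335) were not called.

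Of the genes called lower, Kcnn2, a small-conductance calcium-activated channel, had the lowest log2 fold change of the list, at -3.98 ± 0.44 (SE, adjusted p 3.3e-08). It was at 12.8 ± 4.38 CPM in sham (SD, n = 8), against 0.755 ± 1.36 CPM in the IZ (SD, n = 9). IZ replicate 1 held 4.31 CPM of Kcnn2, and the other IZ samples held at most 0.653 CPM. Kcnk3, an acid-sensitive background channel, was at 236 ± 38.7 CPM in sham (SD, n = 8), against 33.1 ± 42.9 CPM in the IZ (SD, n = 9), or 19.0 CPM without IZ replicate 1, which held 146 CPM. Its log2 fold change was -2.85 ± 0.41 (SE, adjusted p 1.87e-06).

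The genes called higher were at low levels in sham and passed the filter on counts through their IZ samples. Their low sham level is therefore no separate result. Kcnn4, the intermediate-conductance calcium-activated channel known from immune cells and activated fibroblasts, was at 1.43 ± 1.45 CPM in sham (SD, n = 8), against 19.9 ± 5.97 CPM in the IZ (SD, n = 9), a log2 fold change of 3.91 ± 0.36 (SE, adjusted p 1.96e-09). Kcnj15, an inward rectifier, was at 3.85 ± 2.005 CPM in sham (SD, n = 8), against 43.7 ± 11.6 CPM in the IZ (SD, n = 9), a log2 fold change of 3.53 ± 0.25 (SE, adjusted p 4e-11). Kcnk13, a leak channel known from microglia, had a log2 fold change of 3.23 ± 0.45 (SE, adjusted p 1.07e-06). In Kcnn4, Kcnj15 and Kcnk13, named for their high log2 fold changes, every IZ sample lay above every sham sample. This was true of 16.6% of all tested genes. IZ replicate 1 held the lowest IZ value of Kcnn4, at 7.18 CPM, and of Kcnk13, at 8.97 CPM. Kcnab2, an accessory beta subunit, had 0 to 3 counts in each sham library and 12 to 79 in the IZ, which made it at least 6.09-fold higher in the IZ against a floor of 3 counts per sham library (adjusted p 1.57e-08).

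**Figure D5:**
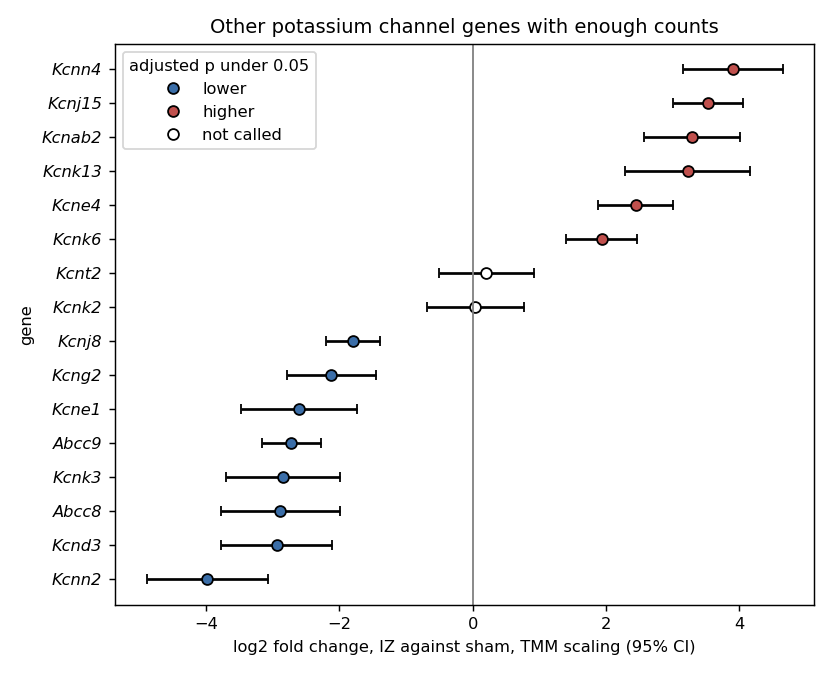
Log2 fold changes (horizontal axis, IZ against sham, TMM scaling) with 95% intervals of 16 of the 17 tested genes of the potassium channel list other than the 9 followed here, ordered by value and coloured by call. The 8 shown that were called lower run from -3.98 for Kcnn2 to -1.80 for Kcnj8, the 6 called higher run from 1.94 for Kcnk6 to 3.91 for Kcnn4, and Kcnk2 and Kcnt2 lie near 0.

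For each channel gene, the genes whose levels varied most like it within the groups were sought among 9292 genes that averaged 10 CPM or more, by Pearson's r of log2 CPM after the group means were subtracted, over 17 samples. These r are descriptions, the samples share their scaling, and IZ replicate 1 carried a large part of most of them. Prob1 was closest to Kcnj11, with r of 0.954 over 17 samples and 0.894 without IZ replicate 1. Dynll2 was closest to Kcnip2, with r of 0.952, and 0.40 without IZ replicate 1. Crip2 was closest to Kcnq1 (0.931 and 0.722 without it), Ppp2r3a to Kcnj3 (0.920 and 0.731), Egln1 to Kcnj5 (0.912 and 0.802), Svil to Kcnd2 (0.898 and 0.832) and Rassf3 to Kcnh2 (0.873 and 0.769). The genes closest to Kcnj2, Crim1 (0.844 and 0.870), and to Kcna5, Mus81 (0.838 and 0.825), were those whose r moved least. They also had the lowest r over 17 samples among the closest genes. Each r is the highest of 9292 candidates, and how high it would be among unrelated genes was not computed. The search was not repeated without IZ replicate 1.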

How the data were processed

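Total RNA was extracted with DNase treatment from 8 sham LV and 9 IZ samples. The authors made 3' end libraries with molecular identifiers, removed PCR duplicates, mapped reads to mm10 and deposited raw counts per gene. Bowtie2, HTSeq and DESeq2 stand in the submitters' processing notes, and the annotation release is not given in the sources used here. All 17 columns were used and 0 were left out. Of 31647 features, 35 were merged groups of genes and were given no name. Identifiers were matched to GENCODE M21 (GRCm38) for 31554 features.

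Testing of the counts used edgeR 4.0.16 under R 4.3.3 (filterByExpr with a minimum of 10 counts, TMM scaling, two-sided quasi-likelihood F-test without covariates, Benjamini-Hochberg adjustment over 12301 genes, threshold 0.05). Standard errors were derived from the F statistic. In a second fit, library sizes were the summed counts of 12 cardiomyocyte genes. The 95% intervals come from the fit to counts and cover counting error and the spread between mice together. A floor of 3 counts stands in for the counts of the lower group, and the mean of the other group is taken as it is. A fold given as at least a value thus describes the observed counts and is not a confidence bound. Ratios used log2 CPM with a prior count of 1, scaled to library size. No other gene matched the last 500 bases of any of the 9 genes at 95% identity over 100 bases or more (BLAST 2.17.0). The alternatives covered scaling (upper quartile, DESeq2 size factors, total counts alone), DESeq2 1.42.0 with its Wald test, no filter, a minimum mean of 20 counts, removal of mitochondrial features, the replicate number as a block, another cardiomyocyte list, prior counts of 0.5 and 5, medians, and the omission of each library. Omission of the sham libraries with over 100 counts of Myl7 was added after seeing the data. The fit over all genes was also run on simulated counts in which few genes changed, equally up and down, and no library stood apart. Such counts do not show how the scaling behaves in these data. Python 3.11.15 with NumPy 2.4.6, pandas 2.3.3, SciPy 1.17.1 and Matplotlib 3.10.9 was used for ratios and plots.

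The 9 genes and the lists were chosen with earlier results of these data known. Besides the 9 genes, the text names from the called genes of the potassium channel list, the 4 with the highest and the 4 with the lowest log2 fold change and a mean of at least 5 CPM in a group, the partner subunits Kcne1, Kcnd3, Kcna4, Kcnj12, Kcnj8, Abcc9 and Kcnab1, and of the genes most like each channel gene the closest. Other genes, Kcne4, Kcnk6, Kcnk2 and Kcnt2 among them, were named after their values were seen. Another partner subunit of this rule is not reported here.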

Additional observations from a re-analysis of the deposited data

Results flagged for a closer look

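Within each group of 8 or 9 samples, the distance of the highest or lowest sample to its neighbour was set against Dixon's limit, for the log2 CPM of the 9 genes and for the 5 ratios. Of 28 groups examined, 6 held such a sample, and chance flags about 1 in 20 groups. IZ replicate 1 stood high in 4 of them, with a log2 CPM of 3.38 for Kcnj3 (other IZ samples -1.46 to 0.53), 4.22 for Kcnj5 (1.27 to 2.72), 4.54 for Kcnq1 (1.84 to 2.61) and 5.26 for Kcnip2 (-0.11 to 0.98). The same library held 35772 CPM of cardiomyocyte markers, against at most 8331 CPM in the other IZ samples. Its part in the 4 values was not tested.

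IZ replicate 7 stood apart in the other 2 groups. Its log2 CPM of Kcna5 was -1.46, from 0 counts in a library of 1237675 counts, where the other IZ samples had 0.85 to 2.52. Its log2 ratio of Kcnh2 to Kcnq1 was 1.94, where the others had -0.63 to 0.55, and it rested on 25 counts of Kcnh2 and 6 of Kcnq1.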

How the results depend on the processing

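All 9 genes were called lower in 25 of the 26 alternatives, and 0 were called higher in any of the 26. With a minimum mean of 20 counts 7 were called, since Kcna5 and Kcnd2 were not tested. With total counts alone the median log2 fold change of all tested genes was 1.13 and 85.7% of all calls were higher, against 52.3% under TMM, while the 9 genes kept log2 fold changes of -0.86 (Kcna5, adjusted p 0.0156) to -3.90 (Kcnj3) and all remained called lower. Of the other potassium channel genes, 9 were called lower in the reported fit, 20 by the DESeq2 Wald test and 22 without a filter on low counts, where 68 genes were tested, and 6 to 9 when 1 library was left out.

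Relative to cardiomyocyte markers, 3 or 4 of the 9 genes were lower and 3 to 5 higher over 20 alternatives. In the reported fit on that scale 0.496% of all tested genes were called lower and 97.2% higher. Of the ratios, Kcnip2 to Kcnd2 lost its call with a prior count of 0.5 (-0.61, exact permutation p adjusted over the 5 ratios 0.212, against -1.72 and 0.00158 with one of 5) and without the sham libraries with more Myl7 (-1.07, adjusted 0.119), and ran from -1.30 to -0.88 when 1 library was left out. Kcnh2 to Kcnq1 lost it with a prior count of 0.5 (-0.70, adjusted 0.0515) and without those sham libraries (-0.44, adjusted 0.285), and ran from -0.92 to -0.58 when 1 library was left out. The cause was not tested. The other 3 ratios kept their calls under all 21 alternatives.

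The labels number replicates in both groups, but the numbers do not name shared mice. Same-numbered samples had correlations of -0.22 to 0.13 over 8 pairs, and only those of replicate 8 correlated best with their own number. With the replicate block 9 genes were lower (Kcnip2 at -5.20), 3858 tested genes were lower and 4220 higher, and relative to the markers Kcnh2 was not called (0.71, adjusted p 0.111). Genes with few counts in the IZ, such as Kcnd2 with at most 7 and Kcnj3 with at most 4 outside replicate 1, allow no finer statement on their level there.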

Other observations

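Of the 61 potassium channel genes with too few counts for the test, 4 had groups that did not overlap, Kcnj12, Kcnn1, Kcnv2 and Kcnd1, the last 3 named after their values were seen. Among tested genes 16.5% lay lower and 16.6% higher in the IZ without overlap, and no share was computed for untested genes. Kcnj12 was at 7.03 ± 1.97 CPM in sham (SD, n = 8), against 1.03 ± 0.780 CPM in the IZ (SD, n = 9). Kcnn1, a small-conductance calcium-activated channel, was at 7.38 ± 2.62 CPM in sham (SD, n = 8), against 1.605 ± 0.914 CPM in the IZ (SD, n = 9). Kcnv2, a silent subunit that modifies other voltage-gated pores, had 5 to 11 counts in each sham library and 0 or 1 in each IZ library, which made it at least 4.72-fold lower in the IZ against a floor of 3 counts per library. Kcnd1, a relative of the transient outward pores Kcnd2 and Kcnd3, had 0 or 1 count in each sham library and 4 to 26 in each IZ library, which made it at least 1.89-fold higher in the IZ. In the IZ Kcnd1 was at 3.35 ± 1.11 CPM (SD, n = 9), Kcnd2 at 0.521 ± 0.812 CPM (SD, n = 9) and Kcnd3 at 1.23 ± 1.54 CPM (SD, n = 9), while in sham Kcnd1 was at 0.116 ± 0.220 CPM (SD, n = 8), Kcnd2 at 15.9 ± 5.99 CPM (SD, n = 8) and Kcnd3 at 9.45 ± 2.75 CPM (SD, n = 8). The order of Kcnd1 among the 3 genes of this family was thus the lowest in sham and the highest in the IZ by mean CPM, on counts of 3' ends.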
